A study of Mus musculus with 19 samples.

Results

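The 10 genes Gfap, Vim, Serpina3n, Aqp4, Cd44, Lcn2, Osmr, Steap4, S1pr3 and Cd109 are markers of reactive astrocytes. They were taken by gene symbol from the array annotation, each through the single probe set that carries its symbol alone, and all 10 were found among 19938 genes. RNA abundance was measured on 19 Affymetrix arrays of hippocampus from C57BL/6J mice 6 months old. Wild-type mice gave 4 arrays on control chow and 5 on ibuprofen chow, and their littermates of genotype APPSwe-PS1deltaE9, called APP-PS1 mice here, gave 5 on each. These mice carry a mutant amyloid precursor protein and a presenilin lacking one exon, both driven by a prion protein promoter, and form amyloid plaques. The ibuprofen chow held 375 ppm of the drug, a cyclooxygenase inhibitor, and was eaten from 3 to 6 months of age. Control mice ate the same chow without it. Values are log2 summaries per probe set, so a difference of 1 unit is a doubling, and a difference carries a standard error (SE) from 1 limma fit over all genes.

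Astrocytes are the glial cells that take up glutamate, buffer potassium and wrap synapses and vessels. Near injury or amyloid plaques they become reactive, which is seen as thicker processes rich in the filament proteins GFAP and vimentin and as the secretion of protease inhibitors, lipocalin and complement. Cytokines of the interleukin-6 family, such as oncostatin M, reach the cell through receptors that signal by the transcription factor STAT3, and Gfap is one of its targets. Some of the 10 genes are not specific to astrocytes, since vimentin and CD44 are also made by vascular, meningeal and immune cells.

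The promoters of Gfap and Serpina3n are shown because these were the members most alike over the arrays. That of Vim is shown because it encodes the second filament protein. That of Steap4 is shown because, of the 8 members whose RefSeq windows were read (all but Aqp4 and Cd109), it alone held the STAT motif TTCNNNGAA. Each is the 250 bases before a RefSeq start site of the gene in build GRCm38.p6, read 5′ to 3′ on the strand of the gene, with motif matches in capitals. The RefSeq gene Serpina3n begins at 104406646, so the last part of its window lies within the gene. The start sites used for Osmr and Cd44, whose windows are not printed, also lie within their genes.
Gfap (chr11:102897201-102897450, minus strand): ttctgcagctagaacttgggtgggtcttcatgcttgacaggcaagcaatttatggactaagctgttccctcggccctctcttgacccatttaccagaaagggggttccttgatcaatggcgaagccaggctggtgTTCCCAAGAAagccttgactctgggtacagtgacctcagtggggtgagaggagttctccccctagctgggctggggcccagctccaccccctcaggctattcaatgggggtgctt
Serpina3n (chr12:104406458-104406707, plus strand): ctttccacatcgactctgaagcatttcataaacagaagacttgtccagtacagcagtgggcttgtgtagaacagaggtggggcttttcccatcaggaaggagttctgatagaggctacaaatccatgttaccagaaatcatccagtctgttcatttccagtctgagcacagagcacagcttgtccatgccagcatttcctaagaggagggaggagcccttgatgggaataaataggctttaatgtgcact
Vim (chr2:13574061-13574310, plus strand): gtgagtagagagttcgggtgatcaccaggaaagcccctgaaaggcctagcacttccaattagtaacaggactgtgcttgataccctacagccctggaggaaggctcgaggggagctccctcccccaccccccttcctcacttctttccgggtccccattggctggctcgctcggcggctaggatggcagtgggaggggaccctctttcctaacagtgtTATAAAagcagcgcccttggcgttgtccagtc
Steap4 (chr5:7960222-7960471, plus strand): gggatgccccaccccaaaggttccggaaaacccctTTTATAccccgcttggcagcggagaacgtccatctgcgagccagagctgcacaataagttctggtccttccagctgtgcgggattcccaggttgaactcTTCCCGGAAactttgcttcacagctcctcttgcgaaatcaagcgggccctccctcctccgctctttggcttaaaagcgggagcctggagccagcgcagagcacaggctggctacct
The letters searched on both strands were TTCNNNGAA, a STAT motif with a spacer of 3 bases, the same TTC and GAA with a spacer of 4 bases, and the TATA box TATAAA, with matches allowed to overlap. TTCNNNGAA occurred in 7.02% of 32851 such windows, the longer form in 5.85% and TATAAA in 12.4%. The Gfap window held TTCCCAAGAA, with the longer spacer, starting at position -115 relative to the start site. Lcn2 and Cd44 also held that motif in their windows. The Steap4 window held TTCCCGGAA starting at position -116 relative to the start site, and a TATA match on the opposite strand. The Vim window held a TATA box starting at position -32 relative to the start site, and the Serpina3n window held none of the 3 motifs. Positions count back from -1 at the base before the start site. A match is a description of letters and not a shown binding site.

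The genotype labels were checked with App, which encodes amyloid precursor protein, and Prnp, whose promoter drives the transgenes. App was higher by 0.37 ± 0.025 (SE) and Prnp by 0.67 ± 0.024 (SE) in APP-PS1 arrays, with limma adjusted p = 1.00e-08 and adjusted p = 3.37e-14 as averages over both diets. Wild-type replicates 1 and 5 on ibuprofen chow and APP-PS1 replicate 1 on control chow stand apart: the median over all genes was 8.75, 8.91 and 8.75 in them and 8.62 to 8.68 in the other arrays. Astrocyte identity genes are a list of 19 genes that resting astrocytes express, transporters and enzymes among them. Their array means were 11.58 to 11.68 and 11.62 to 11.80 in wild-type mice on control and ibuprofen chow. The same mean was 11.61 to 11.70 and 11.59 to 11.66 in APP-PS1 mice. In tissue RNA more cells of a type and more RNA per cell cannot be told apart.

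Averaged over both diets, Gfap, Serpina3n, Vim and Aqp4 had means above wild-type in APP-PS1 hippocampus by 0.26 to 0.49 log2 units, the other members lay between -0.19 and 0.18, and no member passed limma's test over all genes. Of the 10 members 8 lay above 0, against 45.1% of all genes, with a median of 0.17 against -0.0087 over all genes. At an unadjusted p under 0.05, 4 were higher, where 2.34% of all genes were, and 0 were lower, where 5.36% were. At the adjusted threshold of 0.05, 0 members passed, as did 0.0251% of all genes. Separation of the genotypes on control chow and also on ibuprofen chow was seen for 0 members. Of all genes, 0.0201% were higher with no overlap on both diets, and 0% were lower. Without the 3 arrays that stand apart the differences were 0.46 for Gfap, 0.32 for Serpina3n, 0.35 for Vim and 0.25 for Aqp4, and 6 members were higher at an unadjusted p under 0.05, where 5.13% of all genes were. Astrocyte identity genes had 8 of 19 above 0 and a median of -0.015.

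**Figure D1:**
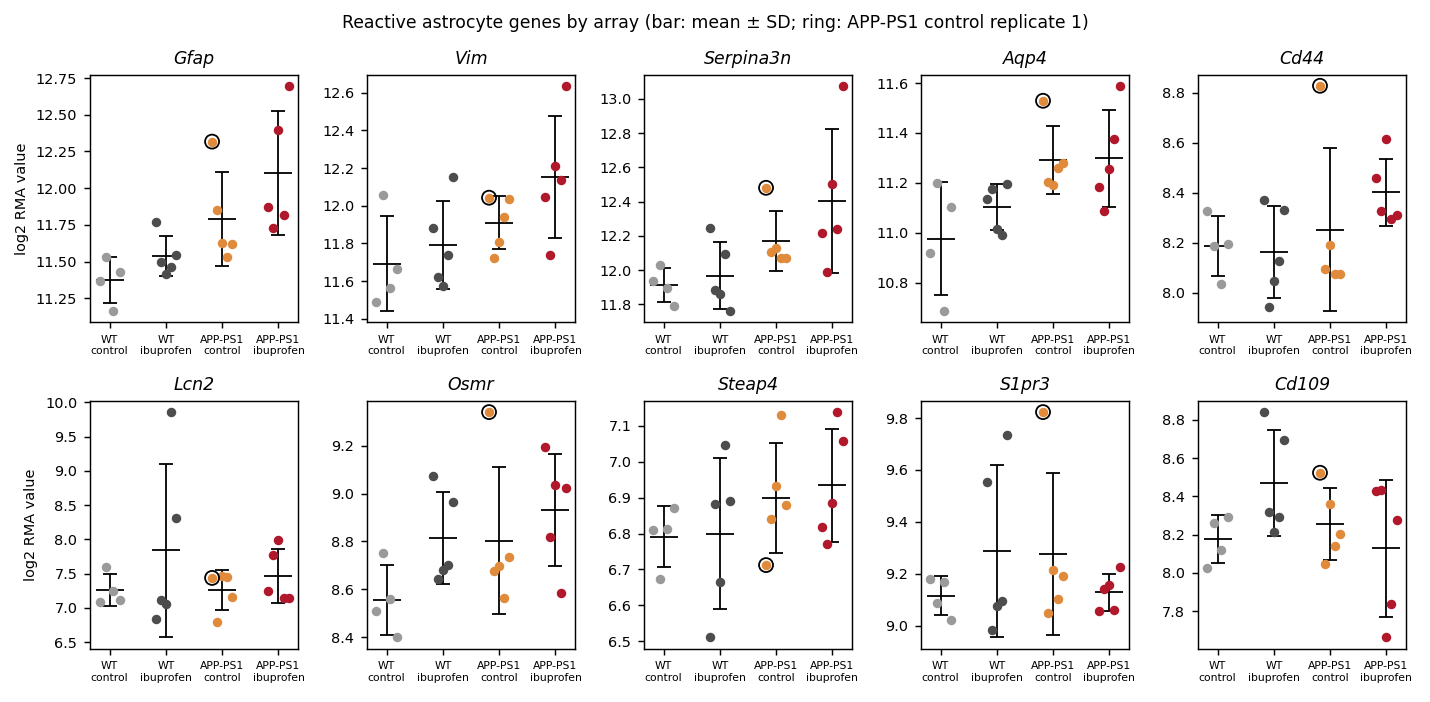
Each panel plots 1 gene, with the log2 RMA value of every array as a point, 4 groups along the horizontal axis, and a bar for the mean ± SD, and vertical scales differ between panels. Rings mark APP-PS1 control chow replicate 1, the highest array of its group for 8 of the 10 genes, and the single highest Lcn2 point lies in wild-type mice on ibuprofen chow.

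Gfap encodes the filament protein that defines fibrous and reactive astrocytes. Its log2 values were 11.37, 11.53, 11.16 and 11.43 in wild-type mice on control chow and 11.77, 11.50, 11.41, 11.47 and 11.54 on ibuprofen chow, in the order of replicate number. In APP-PS1 mice they were 12.32, 11.85, 11.62, 11.53 and 11.62 on control chow and 11.87, 11.73, 12.39, 11.82 and 12.70 on ibuprofen chow. On control chow the groups were separate by the narrowest margin, 11.5336 for the highest wild-type against 11.5337 for the lowest APP-PS1 array, and on ibuprofen chow wild-type replicate 1 overlapped APP-PS1 replicate 2. The group means were 11.37 ± 0.16 (SD, n = 4) and 11.54 ± 0.14 (SD, n = 5) in wild-type mice, then 11.79 ± 0.32 (SD, n = 5) and 12.10 ± 0.42 (SD, n = 5) in APP-PS1 mice. The genotype difference averaged over diets was 0.49 ± 0.11 (SE) with limma adjusted p = 0.211 and a 95% interval of 0.26 to 0.73. Gfap had the largest such difference of the 10 members.

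Vim encodes vimentin, the filament protein that reactive astrocytes share with vascular and meningeal cells. It stood at 11.49, 12.05, 11.56 and 11.67 in wild-type mice on control chow and 11.88, 11.62, 11.57, 11.74 and 12.15 on ibuprofen chow. In APP-PS1 arrays it stood at 12.04, 11.72, 11.81, 11.94 and 12.04 and 12.05, 11.74, 12.21, 12.14 and 12.64 on these diets. Genotypes overlapped on both diets, and the highest wild-type arrays were control chow replicate 2 and ibuprofen chow replicate 5. These were also the wild-type arrays with the highest mean of 10 mural and meningeal markers, 10.28 and 10.39, where the other wild-type arrays had 9.56 to 9.71, and the part of those cells in the Vim values was not tested. The averaged genotype difference was 0.29 ± 0.10 (SE) with adjusted p = 0.438.

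Serpina3n encodes a secreted inhibitor of serine proteases that astrocytes make in abundance after injury, and its values followed those of Gfap. Wild-type arrays read 11.93, 12.03, 11.90 and 11.79 on control chow and 12.24, 11.88, 11.86, 12.09 and 11.76 on ibuprofen chow. APP-PS1 arrays read 12.48, 12.11, 12.13, 12.07 and 12.07 on control chow and 12.22, 11.99, 12.50, 12.24 and 13.08 on ibuprofen chow. On control chow every APP-PS1 array lay above every wild-type array, while on ibuprofen chow wild-type replicate 1 lay above APP-PS1 replicates 1, 2 and 4, and wild-type replicate 4 above APP-PS1 replicate 2. The averaged genotype difference was 0.35 ± 0.10 (SE) with adjusted p = 0.354 and a 95% interval of 0.14 to 0.56. APP-PS1 ibuprofen chow replicate 5 was the highest of all arrays for Serpina3n as for Gfap, Vim and Aqp4.

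Aqp4 encodes the water channel of astrocyte endfeet. Its values were 10.92, 11.20, 10.69 and 11.10 in wild-type mice on control chow and 11.14, 11.18, 11.02, 10.99 and 11.19 on ibuprofen chow. In APP-PS1 mice they were 11.53, 11.20, 11.19, 11.26 and 11.28 without and 11.18, 11.09, 11.25, 11.37 and 11.59 with ibuprofen. Wild-type control chow replicate 3 was the lowest array at 10.69, and replicate 2 at 11.20 lay within the range of APP-PS1 control chow. The averaged genotype difference was 0.26 ± 0.068 (SE) with adjusted p = 0.283. Dmd, the gene of dystrophin, whose complex anchors the channel, gave -0.095 ± 0.044 (SE) with adjusted p = 0.63.

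Among the receptors, Cd44, the hyaluronan receptor, ranged over 8.04 to 8.33 in wild-type control, 7.94 to 8.37 in wild-type ibuprofen, 8.07 to 8.83 in APP-PS1 control and 8.29 to 8.61 in APP-PS1 ibuprofen arrays. Its averaged genotype difference was 0.15 ± 0.088 (SE) with adjusted p = 0.685, and 0.079 without APP-PS1 control chow replicate 1. Osmr, the oncostatin M receptor subunit, ranged over 8.40 to 8.75, 8.64 to 9.07, 8.56 to 9.34 and 8.58 to 9.19 in the same groups, and differed by 0.18 ± 0.10 (SE) with adjusted p = 0.663, and by 0.12 without that array. For S1pr3, a receptor of sphingosine 1-phosphate, the ranges were 9.02 to 9.18, 8.98 to 9.73, 9.05 to 9.82 and 9.06 to 9.23, and the difference was 0.00099 ± 0.10 (SE). Cd109, a membrane protein that binds transforming growth factor beta, gave -0.13 ± 0.11 (SE), with ranges of 8.03 to 8.29, 8.21 to 8.84, 8.05 to 8.52 and 7.66 to 8.43. Genotypes overlapped for each of Cd44, Osmr, S1pr3 and Cd109 on both diets. The highest array was APP-PS1 control chow replicate 1 for Cd44, Osmr and S1pr3, and wild-type ibuprofen chow replicate 1 for Cd109, both arrays that stand apart.

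Lcn2, the secreted iron-carrier protein lipocalin 2, and Steap4, a metalloreductase of the cell membrane, were the members that the filter on dim genes leaves out. Lcn2 read 6.84, 7.11, 7.06, 9.86 and 8.31 in wild-type mice on ibuprofen chow, where replicate 4 was far above every other array. In the other groups it ranged over 7.08 to 7.59 for wild-type control, 6.79 to 7.47 for APP-PS1 control and 7.15 to 7.99 for APP-PS1 ibuprofen chow. Its averaged genotype difference was -0.19 ± 0.27 (SE), and 0.066 without that array. Steap4 ranged over 6.67 to 6.87, 6.51 to 7.05, 6.71 to 7.13 and 6.77 to 7.14 in the 4 groups, and its difference was 0.12 ± 0.071 (SE) with adjusted p = 0.685.

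**Figure D2:**
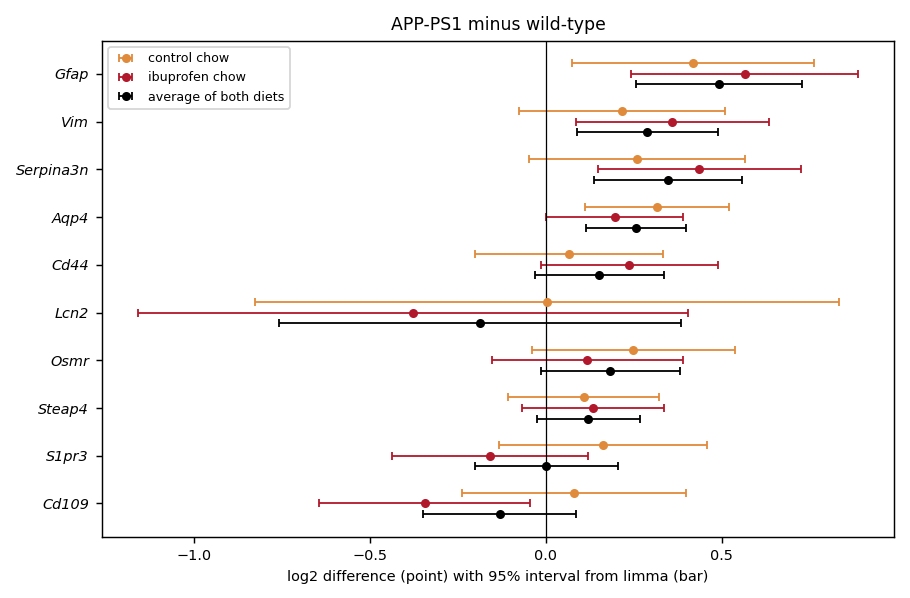
The horizontal axis is the log2 difference of APP-PS1 minus wild-type with its 95% interval from limma, for each of the 10 genes on the vertical axis, on control chow, on ibuprofen chow and as the average of both. Gfap, Vim, Serpina3n and Aqp4 have average intervals above 0, while the Lcn2 interval runs from -0.76 to 0.38.

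The calls for Gfap, Vim, Serpina3n and Aqp4 depended on how arrays were weighted. With limma's array weights, which ranged from 0.105 for wild-type ibuprofen chow replicate 5 to 4.74 for wild-type ibuprofen chow replicate 2, Gfap rose by 0.53 (adjusted p = 0.00919), Vim by 0.41 (adjusted p = 0.0205), Serpina3n by 0.42 (adjusted p = 0.0243) and Aqp4 by 0.24 (adjusted p = 0.0363), where 1.72% of all genes passed. Over the alternatives other than leaving out 1 array, adjusted p ran from 0.00919 to 0.335 for Gfap, from 0.0205 to 0.577 for Vim, from 0.0243 to 0.484 for Serpina3n and from 0.0363 to 0.478 for Aqp4. Leaving out APP-PS1 ibuprofen chow replicate 2 brought Gfap to 0.54 with adjusted p = 0.0404, where 0.261% of all genes passed. Without replicate 5 of that group Gfap gave its lowest difference, 0.42. Over all runs with 1 array left out, adjusted p from limma reached 0.54 for Gfap and 0.893 for Vim. It reached 0.727 for Serpina3n and 0.708 for Aqp4.

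On control chow all 10 members lay above 0 for APP-PS1 minus wild-type, against 57.9% of all genes, with a median of 0.19 against 0.017. Gfap gave a difference of 0.42 ± 0.17 (SE) (adjusted p = 0.806), Aqp4 of 0.32 ± 0.10 (SE) (adjusted p = 0.767), Serpina3n of 0.26 ± 0.15 (SE) (adjusted p = 0.895), Osmr of 0.25 ± 0.14 (SE) (adjusted p = 0.888) and Vim of 0.22 ± 0.14 (SE) (adjusted p = 0.927). Gfap and Aqp4 were the 2 members higher at an unadjusted p under 0.05, where 4.8% of all genes were, and 0 were lower, where 1.07% were. Gfap and Serpina3n were the 2 whose groups did not overlap, as for 2.94% of all genes, while 0 members and 0.903% of all genes were lower with no overlap. Limma called 0 members at the adjusted threshold and 0.01% of all genes. Markers of some other cell types had medians above 0 on this diet, none of these genes past the adjusted threshold. Oligodendrocyte markers had a median of 0.16, with 4 of 7 higher at an unadjusted p under 0.05 and 3 of 7 higher with no overlap. Choroid plexus markers had 9 of 9 above 0 and a median of 0.56, with 0 higher, and microglia markers had 2 of 8 higher and a median of 0.11. With the oligodendrocyte mean as a covariate the control chow difference was 0.44 for Gfap, 0.35 for Aqp4 and 0.28 for Serpina3n. With the choroid plexus mean it was 0.40, 0.30 and 0.24.

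Part of the control chow difference came with 1 array. In APP-PS1 control chow replicate 1, Cd44 read 8.83 against 8.10, 8.19, 8.07 and 8.07 in replicates 2 to 5. Osmr read 9.34 there against 8.67 as the mean of replicates 2 to 5, S1pr3 9.82 against 9.14, Gfap 12.32 against 11.66 and Serpina3n 12.48 against 12.09. This array was the highest of its group for 8 of the 10 members, where it was the highest for 53.4% of all genes, and Steap4 was the lowest of its group there at 6.71. Over all genes it lay 0.083 above the mean of replicates 2 to 5 at the median. Stat3, chosen after its values were seen, was also highest there at 10.42 against 10.03. Of the marker lists, this array also had the highest mean of its group for microglia (9.64, from 9.42 to 9.64 in the group), endothelium (9.59, from 9.34 to 9.59), neurons (12.42, from 12.29 to 12.42) and astrocyte identity (11.70, from 11.61 to 11.70). Cd68 read 10.05 there, in a group range of 9.62 to 10.05. Choroid plexus markers had a mean of 8.27 in it, near the lower end of 8.14 to 10.53, and the part of these cells in the member values was not tested. Without this array the Gfap difference on control chow was 0.29, that of Serpina3n 0.18, of Osmr 0.11 and of Cd44 -0.078, the last below 0. Aqp4 then gave 0.26, Vim 0.18 and Steap4 0.15, while Lcn2, S1pr3 and Cd109 gave -0.040, 0.025 and 0.014. The member median was then 0.13, and 1 member was higher at an unadjusted p under 0.05, where 2.68% of all genes were.

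**Figure D3:**
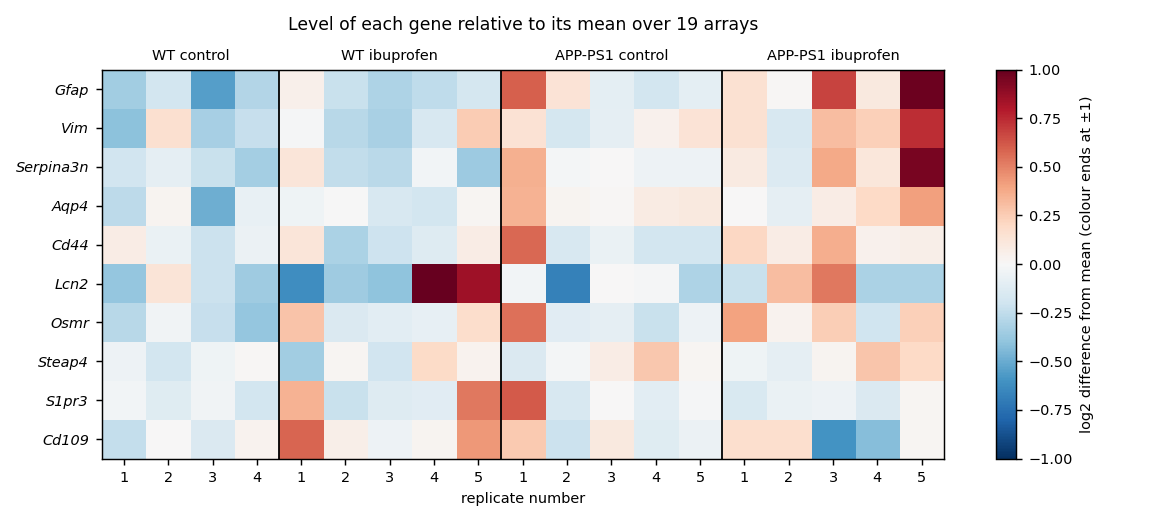
Rows are the 10 genes and columns the 19 arrays by group and replicate, coloured by the log2 difference from the mean of that gene over all arrays, with the colour scale ending at ±1. APP-PS1 control chow replicate 1 is red for genes that include Gfap, Serpina3n, Aqp4, Cd44, Osmr and S1pr3. APP-PS1 ibuprofen chow replicate 5 is red for genes that include Gfap, Vim, Serpina3n and Aqp4. Wild-type ibuprofen chow replicates 4 and 5 are red for Lcn2, whose value of 9.86 in replicate 4 lies beyond the scale.

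On ibuprofen chow the genotype difference was 0.56 ± 0.16 (SE) for Gfap (adjusted p = 0.101), 0.44 ± 0.14 (SE) for Serpina3n (adjusted p = 0.131), 0.36 ± 0.13 (SE) for Vim (adjusted p = 0.15) and 0.24 ± 0.12 (SE) for Cd44 (adjusted p = 0.223). Cd109 had the opposite sign at -0.34 ± 0.14 (SE) (adjusted p = 0.17), and without wild-type replicate 1 it gave -0.25. Over the alternatives other than leaving out 1 array, Cd109 ran from -0.37 to -0.13. Of the members 7 lay above 0, against 37.8% of all genes, with a median of 0.16 against -0.047. At an unadjusted p under 0.05, 4 members (Gfap, Serpina3n, Vim and Aqp4) were higher, against 6.25% of all genes, and 1 was lower, against 18.2%. The groups overlapped for all 10 members, while 0.231% of all genes were higher and 2.06% lower with no overlap. Limma called 0 members and 0.271% of all genes at the adjusted threshold.

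With array weights the count on ibuprofen chow was 5 members, Gfap at 0.77 (adjusted p = 0.00288), Serpina3n at 0.66 (adjusted p = 0.00691), Vim at 0.63 (adjusted p = 0.00642), Cd44 at 0.39 (adjusted p = 0.00966) and Osmr at 0.32 (adjusted p = 0.0375), where 5.04% of all genes passed. Without APP-PS1 replicate 2, Gfap and Serpina3n passed at 0.66 (adjusted p = 0.035) and 0.54 (adjusted p = 0.0412), where 2.23% of all genes passed. Over the other alternatives, array weights included, adjusted p ran from 0.00288 to 0.305 for Gfap and from 0.00691 to 0.333 for Serpina3n. APP-PS1 replicate 5, with 12.70 for Gfap and 13.08 for Serpina3n, was the highest of all arrays for both. Without it Gfap gave 0.42, Serpina3n 0.27 and Vim 0.24, and 2 members were higher at an unadjusted p under 0.05, where 4.29% of all genes were.

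Ibuprofen in APP-PS1 mice gave no call among the members. Gfap, whose array values and means stand above, gave 0.31 ± 0.16 (SE) as ibuprofen minus control chow, with adjusted p = 0.716 and 95% limits of -0.012 to 0.63. Vim gave 0.24 ± 0.13 (SE) (adjusted p = 0.716), Serpina3n 0.23 ± 0.14 (SE) (adjusted p = 0.716) and Aqp4 0.0054 ± 0.093 (SE), with an interval of -0.19 to 0.20. Of the members 8 lay above 0, against 41.8% of all genes, and the median was 0.14 against -0.021. That median was 0.081 without APP-PS1 ibuprofen chow replicate 3 and 0.25 without APP-PS1 control chow replicate 1. At an unadjusted p under 0.05, 0 were higher and 0 lower, where 1.82% and 4.66% of all genes were, and at the adjusted threshold 0% of all genes were called. The diets overlapped for all 10 members, while 0.507% of all genes were higher and 2.27% lower with no overlap. Without APP-PS1 control chow replicate 1 the Gfap difference was 0.44 and 4 members were higher at an unadjusted p under 0.05, where 1.54% of all genes were. Without APP-PS1 ibuprofen chow replicate 5 it was 0.16 and that of Serpina3n 0.064.

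In wild-type mice the ibuprofen difference was 0.16 ± 0.17 (SE) for Gfap, 0.055 ± 0.15 (SE) for Serpina3n, 0.26 ± 0.14 (SE) for Osmr (adjusted p = 0.432) and 0.30 ± 0.15 (SE) for Cd109 (adjusted p = 0.432). Here 9 of 10 members lay above 0, against 66.8% of all genes, with a median of 0.15 against 0.052. That median was 0.076 with replicate 3 of the wild-type control arrays left out and 0.21 with their replicate 2 left out. Both wild-type arrays that stand apart are on ibuprofen chow, and S1pr3 read 9.55 and 9.73 in them against 8.98 to 9.10 in replicates 2 to 4. Cd109 read 8.84 and 8.69 in them against 8.21 to 8.32, and Osmr 9.07 and 8.96 against 8.64 to 8.70. Over the alternatives other than leaving out 1 array, the difference ran from 0.087 to 0.30 for Cd109 and from 0.12 to 0.26 for Osmr. Without the 3 arrays that stand apart S1pr3 gave -0.063 and Vim -0.049. At an unadjusted p under 0.05, 0 members were higher and 0 lower, against 9.08% and 1.95% of all genes, and limma called 0% of all genes at the adjusted threshold. The diets overlapped for all 10 members, while 1.94% of all genes were higher and 0.301% lower with no overlap.

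**Figure D4:**
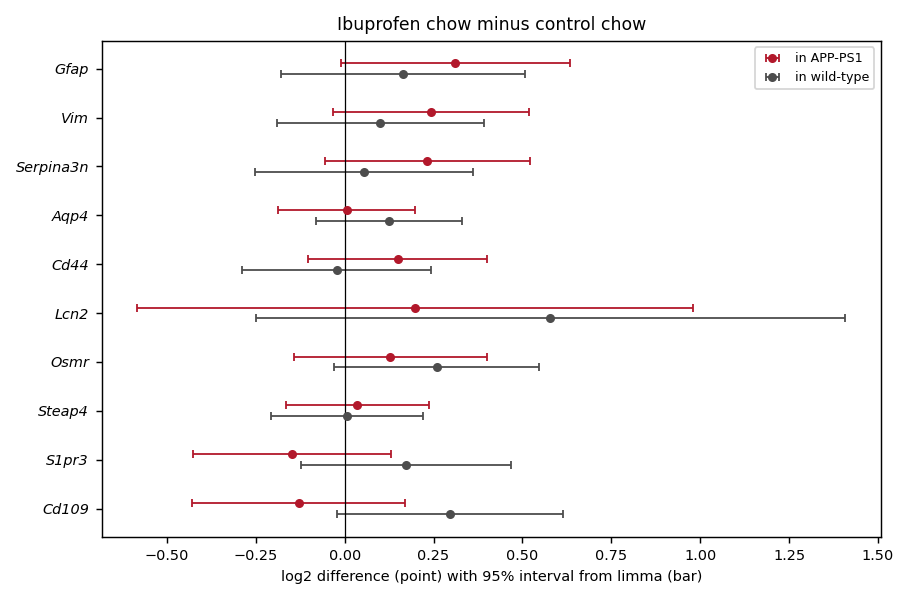
The horizontal axis is the log2 difference of ibuprofen minus control chow with its 95% interval from limma, for the 10 genes on the vertical axis, in APP-PS1 and in wild-type mice. The intervals of both genotypes overlap for each gene, and the widest belong to Lcn2.

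The difference between the ibuprofen responses of the genotypes was tested directly as the interaction. It was 0.15 ± 0.23 (SE) for Gfap (adjusted p = 0.695), 0.18 ± 0.20 (SE) for Serpina3n (adjusted p = 0.589) and -0.42 ± 0.21 (SE) for Cd109 (adjusted p = 0.251), the last lower in APP-PS1. Over the alternatives other than leaving out 1 array, the Cd109 interaction ran from -0.43 to -0.077. The Gfap interval of -0.32 to 0.62 holds values of both signs. Of the members 5 lay above 0, against 35.6% of all genes. At an unadjusted p under 0.05, 0 members were higher and 0 lower, against 4.5% and 16% of all genes, and 0% of all genes were called by limma. With array weights 4 members were higher at an unadjusted p under 0.05, where 5.36% of all genes were.

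The members differed in how closely they followed Gfap. Over 19 arrays, as a description, Gfap correlated at r = 0.916 with Serpina3n, 0.807 with Aqp4, 0.788 with Vim, 0.704 with Osmr and 0.663 with Cd44. The other members gave 0.285 for S1pr3, 0.126 for Steap4, -0.071 for Lcn2 and -0.083 for Cd109. Without APP-PS1 ibuprofen chow replicates 3 and 5, the arrays farthest from the Gfap median, r was 0.821 for Serpina3n, 0.816 for Aqp4, 0.752 for Cd44, 0.745 for Osmr and 0.572 for Vim, so the order of Vim, Osmr and Cd44 rests on those arrays. After subtraction of group means the pair of Gfap and Serpina3n had r = 0.86, and 0.868 without the 3 arrays that stand apart. Cd44 and S1pr3 had a residual r of 0.82, which was 0.181 without those 3 arrays, and Cd44 and Osmr one of 0.801, which was 0.361 without them. The points share an array and its RNA preparation, and the genotype and diet groups.

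Of all genes with a standard name, those most like Gfap by Pearson correlation over 19 arrays were Serpina3n, Acvr1c, a type I activin receptor gene (r = 0.908), C4b, complement component 4 (r = 0.905), Gal, the galanin neuropeptide gene (r = 0.889), and Ddah1, an enzyme gene of methylarginine breakdown (r = 0.888). Without the arrays farthest from the Gfap median, APP-PS1 ibuprofen chow replicates 3 and 5, r was 0.821 for Serpina3n, 0.872 for Acvr1c, 0.85 for C4b, 0.911 for Gal and 0.79 for Ddah1. After subtraction of group means the closest were Scd2, a fatty acid desaturase gene (r = 0.887), C4b (0.862), Acvr1c (0.86), Serpina3n (0.86) and Pdlim4 (0.858). C4b read 10.09 in APP-PS1 control chow replicate 1 against 9.55 for the mean of replicates 2 to 5, and 10.61 in APP-PS1 ibuprofen chow replicate 5.

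**Figure D5:**
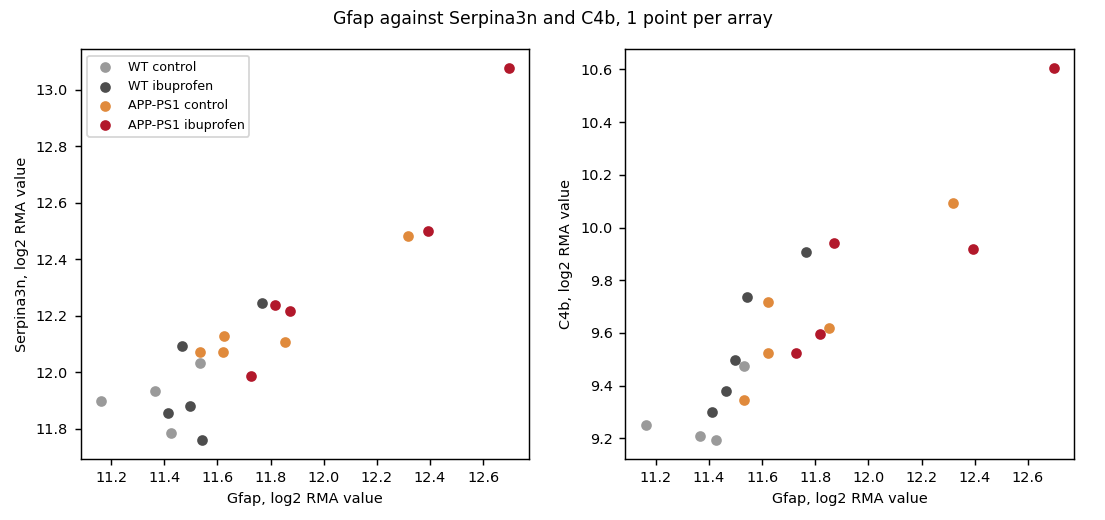
Each point is 1 of 19 arrays, coloured by group, with the log2 value of Gfap on the horizontal axis and that of Serpina3n or C4b on the vertical axis. APP-PS1 ibuprofen chow replicate 5 is the upper right point in both panels, at 12.70 for Gfap, 13.08 for Serpina3n and 10.61 for C4b.

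Other genes known from reactive astrocytes were read in the same averaged genotype comparison, and none passed the adjusted threshold. Here higher and lower count genes at an unadjusted p under 0.05, of which there were 2.34% and 5.36% over all genes, with a median of -0.0087. Of 7 disease-associated and 12 A1-type genes listed, 6 and 7 were measured. Disease-associated astrocyte genes outside the 10 had 5 of 6 above 0, a median of 0.16, 4 higher and 0 lower. In that list Ctsb, the protease gene cathepsin B, gave 0.10 ± 0.025 (SE) (adjusted p = 0.28), C4b 0.36 ± 0.12 (SE) (adjusted p = 0.436), Fabp7, a fatty acid carrier of astrocytes and progenitors, 0.19 ± 0.064 (SE) (adjusted p = 0.436), and Gsn, the actin-severing gelsolin, 0.17 ± 0.063 (SE) (adjusted p = 0.519). Microglia also make Ctsb. The 5 remaining pan-reactive genes had 5 of 5 above 0, a median of 0.13, 0 higher and 0 lower. Genes called A1-type, found after inflammatory challenge, had 5 of 7 above 0, a median of 0.10, 1 higher and 0 lower, the higher one being Srgn, the proteoglycan serglycin, at 0.19 ± 0.083 (SE). A2-type genes, found after ischaemia, had 8 of 10 above 0, a median of 0.070, 1 higher and 0 lower, led by S100a10 at 0.20 ± 0.069 (SE) (adjusted p = 0.478).

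The signalling genes known upstream of Gfap were counted in the same way. Ligands, receptors and kinases of the interleukin-6 family and STAT3 had 6 of 12 above 0, a median of 0.0077, 0 higher and 2 lower. The lower ones were Cntfr, the receptor of ciliary neurotrophic factor, at -0.15 ± 0.061 (SE) (adjusted p = 0.597), and Tyk2, a Janus kinase, at -0.17 ± 0.074 (SE) (adjusted p = 0.613). Named after their values were seen, Stat3 gave 0.038 ± 0.064 (SE), and Osm, the ligand of the Osmr receptor, 0.094 ± 0.072 (SE). Filament relatives, aquaporins, hyaluronan synthases, Steap and S1pr paralogues and other partners of the members had 16 of 25 above 0, a median of 0.037, 0 higher and 1 lower, the lower one being Dmd. Of the astrocyte identity genes 0 were higher and 1 was lower, Slc4a4, a bicarbonate transporter, at -0.10 ± 0.037 (SE) (adjusted p = 0.537).

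Markers of other cell types were counted in the same way, and their part in the member values was not tested except where a covariate is named. Microglia markers had 7 of 8 above 0, a median of 0.037, 3 higher and 0 lower, with array means of 9.35 to 9.47 and 9.35 to 9.73 in wild-type and 9.42 to 9.64 and 9.42 to 9.73 in APP-PS1 mice on control and ibuprofen chow. They were led by Cd68, a lysosomal protein of phagocytes, at 0.29 ± 0.079 (SE) (adjusted p = 0.314), and Csf1r, the growth factor receptor of microglia, at 0.13 ± 0.044 (SE), with C1qa, a complement gene, at 0.13 ± 0.061 (SE). Choroid plexus markers had 9 of 9 above 0, a median of 0.61, 1 higher and 0 lower and, for Otx2, a difference of 0.80 ± 0.38 (SE), with array means of 7.91 to 9.62 and 7.94 to 10.33 in wild-type and 8.14 to 10.53 and 8.24 to 10.31 in APP-PS1 mice. Mural and meningeal markers had 9 of 10 above 0, a median of 0.17, 1 higher and 0 lower, the higher one Col1a1, endothelial markers 5 of 6 above 0, a median of 0.070, 0 higher and 0 lower, and oligodendrocyte markers 4 of 7 above 0, a median of 0.072, 2 higher and 0 lower. The higher oligodendrocyte genes, for myelin proteins, were Mal at 0.085 ± 0.037 (SE) and Cnp at 0.072 ± 0.034 (SE). Neuron markers had 3 of 7 above 0, a median of -0.014, 0 higher and 0 lower, and blood leukocyte markers 4 of 6 above 0, a median of 0.051, 0 higher and 0 lower. With the choroid plexus mean as a covariate the averaged differences were 0.48 for Gfap, 0.33 for Serpina3n, 0.21 for Vim and 0.23 for Aqp4. With the oligodendrocyte mean as a covariate they were 0.50, 0.35, 0.29 and 0.26. The labels give no sex, litter or batch, so any part of these in a difference could not be told apart from genotype or diet. The p-values set a difference only against the spread between arrays within the groups, as limma estimated it.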

How the data were processed

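The authors deposited 1 log2 value per probe set and array, summarized by RMA in Partek 6.5 according to the submitters' processing notes. Settings of background correction and normalization are not given in the sources used here. Values were used without further normalization, and the number of arrays limits the precision. The array annotation gave 1 symbol to 21789 of 35556 probe sets, and the one with the highest mean stood for each of 19938 genes, with no filter on dim genes. Limma 3.58.1 in R 4.3.3 (tables read by the package data.table at version 1.17.8) fitted 4 group means to all arrays with an intensity trend, which left 15 residual degrees of freedom. It gave 6 two-sided comparisons, with Benjamini-Hochberg adjustment over all genes and a threshold of 0.05. The fit was tested on simulated data in which genes and arrays varied independently, so the simulation says nothing on arrays that stand apart. All members are named, and from 14 other lists up to 4 genes each with the smallest unadjusted p under 0.05 in the averaged genotype comparison. The 5 genes most like Gfap are also named. Members, lists and the arrays that stand apart were chosen with earlier results of these data known. Alternatives were quantile normalization, median centring, a filter on dim genes, probe set means, other empirical Bayes settings, array weights, only the groups compared, a replicate block, choroid plexus and oligodendrocyte covariates, and leaving out arrays. Figures used Python 3.11.15 and matplotlib 3.10.9.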

Additional observations from a re-analysis of the deposited data

Results flagged for a closer look

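In APP-PS1 control chow replicate 1, 5 members lay far above the other arrays of their group. The gap to the next array, as a share of the range of the group, was 0.859 for Serpina3n, which read 12.48 against 12.13 in the next array. It was 0.847 for Cd44 (8.83 against 8.19), 0.788 for S1pr3 (9.82 against 9.21), 0.779 for Osmr (9.34 against 8.74) and 0.744 for Aqp4 (11.53 against 11.28). In a group of 5, Dixon's 95% critical value is 0.71. Of 40 combinations of member and group examined, chance flags about 1 in 20, which is 2, but the flags found share 1 array and are not independent. Over all genes this array was the highest of its group and past that value for 6.82%. Lcn2 in wild-type ibuprofen chow replicate 4 had a smaller gap, since replicate 5, at 8.31, also lay above the rest.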

How the results depend on the processing

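With 4 or 5 arrays a group, single arrays decide several values. The member median moved by over 0.15, the spread between replicates, only for the interaction, from -0.046 to 0.12 with array weights and over -0.086 to 0.11 when single arrays were left out (highest without wild-type ibuprofen chow replicate 4). By a smaller step it moved over 1.5 times for genotype on ibuprofen chow with array weights (0.28), and ran over 0.13 to 0.25 for ibuprofen in APP-PS1 and 0.066 to 0.15 in wild-type mice over the alternatives. Members called numbered 4 (averaged genotype) and 5 (genotype on ibuprofen chow) with array weights, where 1.72% and 5.04% of all genes were called. With 1 array left out they numbered 0 to 1 and 0 to 2. The highest came without APP-PS1 ibuprofen chow replicate 2, where 0.261% and 2.23% of all genes were called. Members higher at an unadjusted p under 0.05 moved as follows, with the percentage of all genes so called in brackets. For genotype on control chow they numbered 2 [4.8%] as reported, 4 [7.66%] with only the groups compared, 1 [5.91%] without the 3 arrays that stand apart, 1 to 4 over all alternatives, and 1 to 4 when 1 array was left out (1 without wild-type control replicate 3 [1.46%] or APP-PS1 control replicate 1 [2.68%], 4 without wild-type control replicate 2 [6.65%]). For genotype on ibuprofen chow they numbered 4 [6.25%] as reported and 3 to 6 over all alternatives [3.23% to 11.2%]. With 1 array left out they numbered 2 to 5 (2 without APP-PS1 ibuprofen replicate 5 [4.29%], 5 for instance without wild-type ibuprofen replicate 5 [4.94%]). For ibuprofen in APP-PS1 mice they numbered 0 [1.82%] as reported, 1 [2.19%] with quantile normalization, 2 [2.73%] with median centring, 5 [5.98%] with array weights, 1 [3.48%] with replicate block, 4 [3.27%] without the 3 arrays that stand apart, 0 to 5 over all alternatives, and 0 to 4 when 1 array was left out (1 without APP-PS1 ibuprofen replicate 1 [2.61%] or APP-PS1 ibuprofen replicate 4 [0.898%], 3 without APP-PS1 ibuprofen replicate 2 [2.98%], 4 without APP-PS1 control replicate 1 [1.54%]). For ibuprofen in wild-type mice they numbered 0 [9.08%] as reported, 2 [4%] with only the groups compared, 1 [7.67%] with replicate block, 0 to 2 over all alternatives, and 0 to 1 when 1 array was left out (1 without wild-type control replicate 2 [9.57%] or wild-type ibuprofen replicate 1 [5.21%] or wild-type ibuprofen replicate 3 [13.1%] or wild-type ibuprofen replicate 4 [17.2%] or APP-PS1 control replicate 1 [10.7%] or APP-PS1 ibuprofen replicate 3 [8.96%]). For the interaction they numbered 0 [4.5%] as reported, 4 [5.36%] with array weights, 1 [2.42%] without the 3 arrays that stand apart, 0 to 4 over all alternatives, and 0 to 1 when 1 array was left out (1 without APP-PS1 control replicate 1 [3.08%]). For the averaged genotype they numbered 4 [2.34%] as reported and 6 [5.13%] without the 3 arrays that stand apart. Over all alternatives they ran over 4 to 6 [2.19% to 8.25%]. The sign of a difference with no call turned as follows, and the cause was not tested. With median centring it turned in Lcn2 (-0.030) for genotype on control chow, and Serpina3n (-0.012), Steap4 (-0.059) for ibuprofen in wild-type mice. With array weights it turned in Cd44 (-0.086), Lcn2 (-0.020) for genotype on control chow, and S1pr3 (0.11) for genotype on ibuprofen chow, and Vim (-0.028), Serpina3n (-0.015), S1pr3 (-0.087) for ibuprofen in wild-type mice, and Osmr (0.17), Steap4 (-0.041), S1pr3 (0.061) for the interaction. With the replicate block it turned in Lcn2 (-0.0018) for genotype on control chow, and Steap4 (-0.0087) for ibuprofen in wild-type mice, and S1pr3 (-0.018) for the averaged genotype. With the choroid plexus covariate it turned in Lcn2 (-0.011) for genotype on control chow, and Aqp4 (-0.00090) for ibuprofen in APP-PS1 mice, and S1pr3 (-0.031) for the averaged genotype. With the oligodendrocyte covariate it turned in Lcn2 (-0.065), Cd109 (-0.14) for genotype on control chow, and Aqp4 (-0.015), Steap4 (-0.016), Cd109 (0.010) for ibuprofen in APP-PS1 mice, and Osmr (0.060), Steap4 (-0.10) for the interaction, and S1pr3 (-0.0055) for the averaged genotype. Without the 3 arrays that stand apart it turned in Cd44 (-0.078), Lcn2 (-0.040) for genotype on control chow, and S1pr3 (0.077) for genotype on ibuprofen chow, and Steap4 (-0.011) for ibuprofen in APP-PS1 mice, and Vim (-0.049), S1pr3 (-0.063) for ibuprofen in wild-type mice, and Osmr (0.14), Steap4 (-0.085), S1pr3 (0.052) for the interaction. With quantile normalization it turned in Steap4 (-0.016) for ibuprofen in APP-PS1 mice, and Steap4 (-0.059) for the interaction. With 1 array left out, the sign turned in Lcn2 (-0.056 to 0.12), Cd44 (-0.078 to 0.11) for genotype on control chow, Lcn2 (-0.63 to 0.13) for genotype on ibuprofen chow, Steap4 (-0.016 to 0.093), Aqp4 (-0.067 to 0.065) for ibuprofen in APP-PS1 mice. It also turned in Cd44 (-0.075 to 0.033), Steap4 (-0.055 to 0.080), Serpina3n (-0.014 to 0.11) for ibuprofen in wild-type mice, Steap4 (-0.044 to 0.090), Lcn2 (-0.63 to 0.12), Osmr (-0.20 to 0.0034), Gfap (-0.0021 to 0.28) for the interaction, S1pr3 (-0.067 to 0.057), Lcn2 (-0.31 to 0.066) for the averaged genotype. The same replicate number does not mark a shared animal or litter in the labels, and deviations of same-numbered arrays correlated at -0.27 to 0.601 over 27 pairs. With the number as a replicate block Gfap gave 0.47 for the averaged genotype (adjusted p = 0.239), and no member was called in any comparison. Of all genes, this block called 0.988% for genotype on ibuprofen chow, 0.0301% for the averaged genotype and 0.0201% for genotype on control chow. It called 0% for ibuprofen in either genotype and for the interaction. Lcn2 and Steap4 had no value with the dimmest genes left out.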

Other observations

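Timp1, the secreted inhibitor of metalloproteases that reactive astrocytes make, and Cxcl10, the interferon-induced chemokine, were chosen for description after their values were seen. Timp1 read 8.69 in APP-PS1 ibuprofen chow replicate 5 and 8.04 in APP-PS1 control chow replicate 1, and the next highest array was APP-PS1 ibuprofen chow replicate 3. These were also the 3 highest Gfap arrays. In the other arrays it ranged over 7.04 to 7.73. Its averaged genotype difference was 0.30 ± 0.15 (SE) with adjusted p = 0.659. Cxcl10 was highest in APP-PS1 ibuprofen chow replicate 5 at 8.78 and wild-type ibuprofen chow replicate 1 at 8.16, each the highest Gfap array of its group. In APP-PS1 control chow the highest Gfap array, replicate 1, read 7.32 for Cxcl10, and replicate 5 read 7.85. Acvr1c, one of the genes most like Gfap, read 10.31, 10.27 and 10.19 in the 3 highest Gfap arrays, and 9.92 in wild-type ibuprofen chow replicate 1, the highest of the wild-type arrays.

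Also seen before they were chosen were relatives of Steap4 and Aqp4. Steap1 and Steap2 had averaged genotype differences of 0.44 ± 0.30 (SE) and 0.34 ± 0.22 (SE), beside choroid plexus markers with a median of 0.61. Aqp1, the aquaporin of choroid epithelium, gave 0.39 ± 0.29 (SE). Their adjusted p lay at 0.704, 0.693 and 0.724.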
